A study of Caenorhabditis elegans with 23 samples.

Results

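The Pumilio family genes fbf-1, fbf-2, puf-3, puf-5, puf-6, puf-7, puf-8 and puf-11 of Caenorhabditis elegans were followed by name in mRNA and in small RNA. They are 8 of the 46904 genes in each count table, and all 8 passed the filter on low counts in both assays, as did 13983 genes of the mRNA table and 12241 of the small RNA table. Whole worms of 4 groups were sampled: MY16_Star, MY16, N2_Star and N2. N2 is the common laboratory strain and MY16 is a wild isolate. The labels do not explain what Star adds to either name, so no genotype or treatment beyond the name can be given for MY16_Star and N2_Star. All groups were first-day adults grown at 20 °C on E. coli OP-50, their RNA was taken with TRIzol, and the series asks whether small RNA can be inherited apart from the nucleus. There were 3 mRNA libraries in each group, and 3 small RNA libraries in each group other than N2_Star, which had 2. The design text instead places the failed small RNA library in MY16_Star; the groups follow the sample list and the table columns. It calls the replicates biological without saying how they were kept apart, so p-values measure the spread between these libraries, which may be partly technical.

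Pumilio (PUF) proteins are RNA-binding proteins that recognise short elements in the 3′ untranslated regions of mRNAs, usually reducing translation or stability of the bound mRNA. In the C. elegans germline, which matures from stem cells at the distal end of the gonad to oocytes at the proximal end, FBF-1 and FBF-2 keep stem cells from entering meiosis, and PUF-8 acts in the mitotic region and in spermatocytes. PUF-5, PUF-6 and PUF-7 act in growing oocytes, and PUF-3 and PUF-11 also act late in oogenesis and in the early embryo. These need not be the only roles of each protein, so the members are not split into stem cell and oocyte genes. Many germline mRNAs of the worm are templates for antisense small RNAs, which Argonaute proteins carry.

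The 8 genes lie on chromosomes II and IV, and their coordinates were read from RefSeq's WBcel235 annotation, the same assembly as ce11. On chromosome II, fbf-1 (WBGene00001401) spans 6078263 to 6080843 and fbf-2 (WBGene00001402) spans 6088863 to 6091480, with 8019 bases between them. The same chromosome holds puf-8 (WBGene00004244, 7296115 to 7298247), puf-5 (WBGene00004241, 8575541 to 8577787) and puf-6 (WBGene00004242, 13039792 to 13043445). Chromosome IV holds puf-7 (WBGene00004243, 5486713 to 5490322), puf-11 (WBGene00022257, 6421585 to 6423497) and puf-3 (WBGene00004239, 13510307 to 13512162). All 8 are annotated as protein coding. Annotated genes overlap 3 of them: H12I13.6 overlaps fbf-1, afmd-2 overlaps puf-3, and the pseudogene F18A11.7 overlaps puf-6. Whether the mRNA counting used strand is not given in the sources used here, so mRNA reads of these overlaps may not have been told apart.

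The mRNA libraries held 9362590 to 23150198 counts in genes, and the small RNA libraries 1778321 to 19563562. The lowest count of any member was 147 reads in mRNA and 59 reads in small RNA, for puf-7 in N2 replicate 3. For puf-3, puf-5, puf-6, puf-7 and puf-11, MY16_Star replicate 1 was the highest mRNA library and N2_Star replicate 1 the lowest, so results that rest on them are also given without them. Values are in CPM, the read count relative to the library's total, after TMM scaling, which uses a trimmed mean of log ratios between libraries. Group means have n = 3 libraries, with n = 2 for N2_Star small RNA.

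Levels in whole worms differed widely within the family. Scaled to the annotated gene span, introns included, the mean mRNA level over the 12 libraries was 444 CPM per kilobase for puf-5, 251 for puf-3 and 221 for puf-11. It was 80.1 CPM per kilobase for puf-8, 18.9 for puf-6, 16.2 for puf-7, 8.27 for fbf-2 and 7.47 for fbf-1, a 59.4-fold range. Of the members with a role in oocytes, puf-5, puf-3 and puf-11 headed the order, but puf-6 and puf-7 stood below puf-8. Last in the order were fbf-2 and fbf-1. Small RNA per kilobase of span covered a narrower, 11.6-fold range: puf-11 stood at 179 CPM per kilobase, puf-3 at 104, puf-5 at 70.5, fbf-2 at 67.0, puf-8 at 62.0, fbf-1 at 52.8, puf-6 at 20.1 and puf-7 at 15.5. Small RNA CPM divided by mRNA CPM was 6.95 for fbf-2 and 7.13 for fbf-1 in N2, and 0.156 for puf-5 in N2. The same ratio in MY16 was 9.11 for fbf-2, 7.15 for fbf-1 and 0.177 for puf-5. The 2 assays were scaled separately, so such ratios order the members and are not molecule ratios.

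The mRNA of 5 of the 8 members was higher in MY16_Star than in N2_Star worms, namely puf-7, puf-11, puf-5, puf-6 and puf-3, by 1.70-fold to 2.22-fold. All 5 code for PUF proteins with a role in oogenesis, which need not be their only role. Neither fbf-1 nor fbf-2 passed the test, and puf-8 lay just outside it. Genes called in either direction made up 22.5% of the 13983 tested, and genes called higher made up 7.69%. The median log2 fold change was 0.82 over the 8 members and -0.12 over all genes tested. This comparison asks how the Star groups differ from each other. In whole worms, more cells of a type and more RNA per cell cannot be told apart.

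Among the paired genes puf-6 and puf-7, whose products act with PUF-5 in oocytes, puf-7 had the largest fold change of the family. Its mRNA level was 100.3, 81.4 and 76.2 CPM in MY16_Star, 46.9, 72.9 and 57.9 CPM in MY16, 30.3, 46.1 and 40.0 CPM in N2_Star, and 55.9, 45.8 and 49.8 CPM in N2. Each MY16_Star library lay above each library of the 3 other groups. The means were 86.0 ± 12.7 CPM in MY16_Star and 38.8 ± 7.97 CPM in N2_Star (SD, n = 3 each), a log2 fold change of 1.15 with a standard error of 0.197 (edgeR quasi-likelihood test, Benjamini-Hochberg adjusted p = 0.00288). For puf-6, MY16_Star libraries held 105, 87.8 and 86.9 CPM, MY16 libraries 51.9, 84.6 and 75.4 CPM, N2_Star libraries 30.3, 69.2 and 53.2 CPM, and N2 libraries 67.2, 54.7 and 61.0 CPM. Again the MY16_Star libraries did not overlap those of any other group, while MY16 and N2_Star each varied widely among themselves. The puf-6 log2 fold change of MY16_Star over N2_Star was 0.87 ± 0.259 (SE; edgeR adjusted p = 0.0331).

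For puf-5, the member with the highest mRNA level per kilobase, MY16_Star libraries held 1855, 1144 and 1145 CPM and MY16 libraries 1157, 1121 and 872 CPM. N2_Star libraries held 527, 907 and 686 CPM, against 988, 783 and 783 CPM in N2. All MY16_Star libraries were above all N2_Star and all N2 libraries, and overlapped those of MY16. Its mean of 1381 ± 410 CPM in MY16_Star against 706 ± 191 CPM in N2_Star (SD, n = 3 each) gave a log2 fold change of 0.97 with a standard error of 0.238 (edgeR adjusted p = 0.0173).

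Both puf-3 and puf-11, which are related to each other, were higher. For puf-11, MY16_Star libraries held 754, 498 and 512 CPM, MY16 libraries 489.8, 437 and 379.5 CPM, N2_Star libraries 246, 332 and 302 CPM, and N2 libraries 426, 352 and 355 CPM. The MY16_Star libraries lay above every other library and the N2_Star libraries below every other library. Its log2 fold change of MY16_Star over N2_Star was 1.0 ± 0.186 (SE; edgeR adjusted p = 0.00454). For puf-3, MY16_Star libraries held 769.9, 537 and 544 CPM, MY16 libraries 417, 484 and 412 CPM, N2_Star libraries 285, 430.4 and 374 CPM, and N2 libraries 522, 402 and 421 CPM. Here too MY16_Star stood above all other libraries, but N2_Star overlapped MY16 and N2. For puf-3 MY16_Star over N2_Star gave 0.77 on the log2 scale, with a standard error of 0.190 (edgeR adjusted p = 0.0178).

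The mRNA of puf-8, a regulator of mitotic germ cells and spermatocytes, was 220.2, 193 and 177 CPM in MY16_Star, 220.2, 177 and 142.4 CPM in MY16, 143, 162 and 134 CPM in N2_Star, and 172, 156 and 153 CPM in N2. MY16_Star and N2_Star did not overlap, yet the log2 fold change of 0.43 ± 0.159 (SE) had an edgeR adjusted p of 0.0694. In all, 6 members had non-overlapping MY16_Star and N2_Star libraries, as did 36.7% of the genes tested. The share of all genes with MY16_Star above every other group, as for puf-7, puf-6, puf-11 and puf-3, was not counted.

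Such a separation was not seen for fbf-1 or fbf-2. For fbf-1 the libraries held 23.5, 15.1 and 22.6 CPM in MY16_Star, 28.3, 18.7 and 15.3 CPM in MY16, 21.9, 16.6 and 14.96 CPM in N2_Star, and 21.1, 17.7 and 15.5 CPM in N2. For fbf-2 they held 30.5, 18.2 and 21.6 CPM in MY16_Star, 29.6, 22.3 and 15.2 CPM in MY16, 24.7, 17.8 and 20.1 CPM in N2_Star, and 22.1, 19.8 and 18.0 CPM in N2. All 4 groups overlapped for both genes. The log2 fold change of MY16_Star over N2_Star was 0.19 for fbf-1, with a 95% interval of -0.37 to 0.76, and 0.17 for fbf-2, with an interval of -0.39 to 0.73. These intervals still hold the estimate of puf-8 and leave out those of the 5 members called higher in MY16_Star than in N2_Star, puf-3 only narrowly. They overlap the intervals of all 5, such as 0.35 to 1.18 for puf-3 and 0.72 to 1.58 for puf-7. A test of the difference between fbf genes and the other members was not made.

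**Figure D1:**
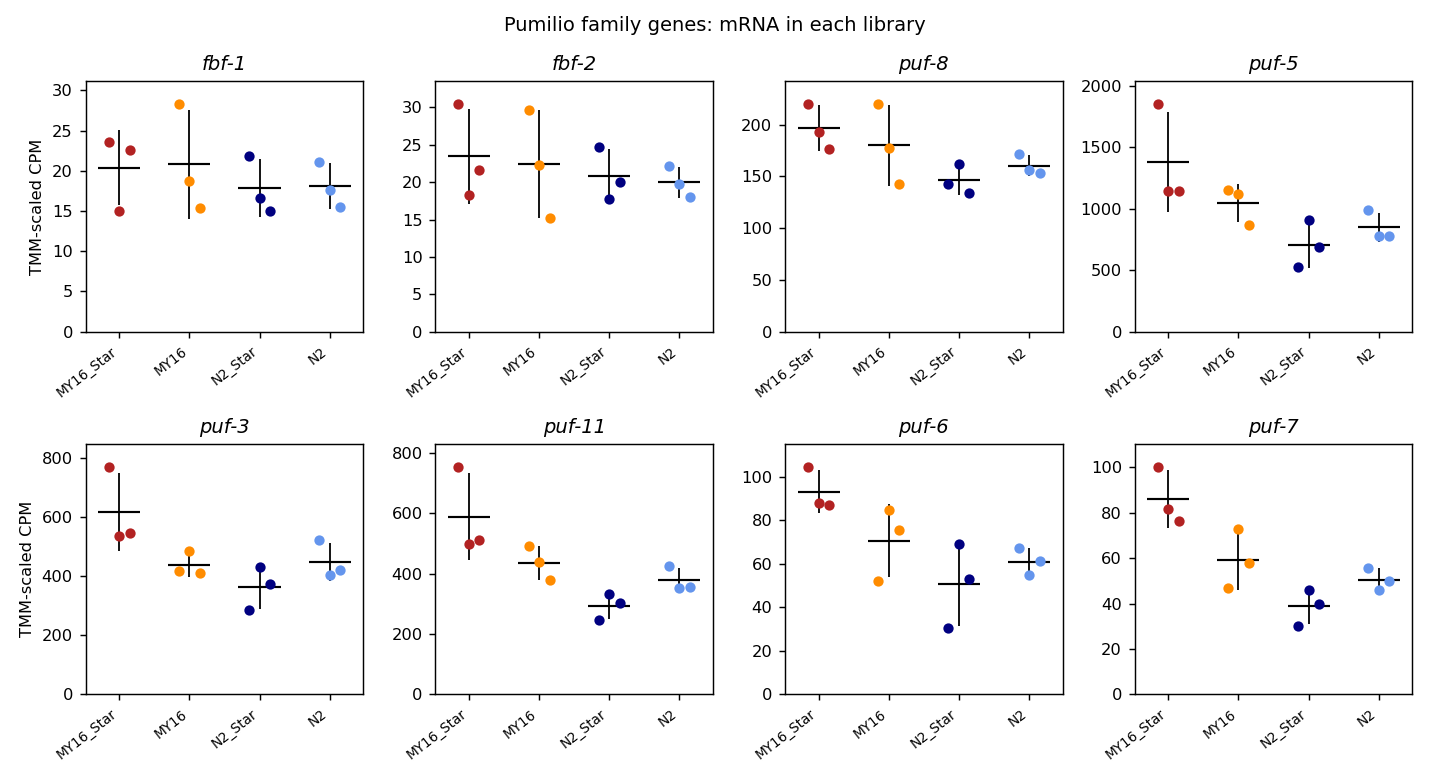
TMM-scaled mRNA CPM of each Pumilio family gene (vertical axis, from 0) in every library, by group; points are libraries in replicate order, horizontal bars the mean and vertical lines the SD (n = 3). For puf-7, puf-6, puf-11 and puf-3 the MY16_Star points stand above those of all other groups, whereas the fbf-1 and fbf-2 points overlap in all 4 groups.

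The calls for puf-7 and puf-11 held in all 20 alternative fits, with log2 fold changes of 0.88 to 1.37 for puf-7 and 0.67 to 1.22 for puf-11. Without MY16_Star replicate 1, with the fit limited to MY16_Star and N2_Star, and without replicate 1 of both Star groups, 2 of the 5 members stayed past the threshold, and puf-3, puf-5 and puf-6 did not. In the fit limited to these groups the log2 fold changes were larger than with all 4 groups, at 0.83 for puf-3 (edgeR adjusted p = 0.0807), 1.03 for puf-5 (0.0782) and 0.93 for puf-6 (0.0825). Without MY16_Star replicate 1 they were 0.61 for puf-3 (0.0558), 0.73 for puf-5 (0.0606) and 0.82 for puf-6 (0.0807). With replicate 1 of both Star groups left out, an alternative added after seeing the data, the log2 fold change was 0.43 for puf-3 (edgeR adjusted p = 0.0675), 0.53 for puf-5 (0.0746) and 0.52 for puf-6 (0.102).

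Markers of germline and other tissues moved in the same comparison. All 7 germline markers were higher in MY16_Star, with a summed level of 2404 to 2909.9 CPM in MY16_Star and 1776 to 1852 CPM in N2_Star. Of 8 oocyte markers 4 were higher and 0 lower, and their sum was 8606 to 10819 CPM in MY16_Star and 4917 to 7328 CPM in N2_Star. Of 9 sperm markers 5 were lower, with sums of 12.3 to 52.6 CPM in MY16_Star and 42.9 to 129 CPM in N2_Star. The marker msp-19 was at 0 in every MY16_Star and every MY16 library, with means of 3.48 CPM in N2_Star and 3.21 CPM in N2. None of the 5 intestine markers was called, with sums of 41339 to 47638 CPM in MY16_Star and 51650.0 to 70673 CPM in N2_Star, and 1 of them had an unadjusted p under 0.05. Among 4 muscle markers unc-54 was lower, with sums of 1209 to 2024 CPM in MY16_Star and 1965 to 2702 CPM in N2_Star. Among 5 neuron markers unc-13 was lower, with sums of 196 to 261 CPM in MY16_Star and 229 to 245 CPM in N2_Star. Of the 7 embryo markers 2 were tested and 1, elt-7, was lower. The sums were 8.29 to 10.6 CPM in MY16_Star and 14.1 to 16.9 CPM in N2_Star. Of the 7, 3 to 4 were at 0 in MY16_Star libraries and 1 to 2 in N2_Star libraries. These sums were mostly elt-7, with means of 8.87 CPM in MY16_Star and 13.8 CPM in N2_Star. Each other embryo marker had means under 1 CPM, so the sums rest on 1 gene and are no measure of embryo content. The part of these tissue shares in the Pumilio values was not tested.

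Other genes of the Pumilio pathway were read from lists of known roles. The lists were chosen with earlier results of these data known, so their counts and medians are a description. Of 11 partners of PUF proteins 2 were higher in MY16_Star than in N2_Star and 0 lower, with a median log2 fold change of 0.33. These were sygl-1, which codes for a Notch-activated partner of FBF (log2 fold change 0.71, edgeR adjusted p = 0.0183), and ccf-1, a deadenylase subunit (0.54, 0.0215). Of 13 reported FBF target mRNAs 3 were higher and 0 lower (median 0.41): htp-1 and him-3, which code for chromosome axis proteins of meiosis, at 0.67 and 0.58, and cye-1, which codes for cyclin E, at 0.39. Of 5 genes of the Notch signal from the stem cell niche 1 was higher and 0 lower (median 0.25), namely sel-8, a cofactor of the Notch transcription complex, at 0.62. In this comparison 7.69% of all genes tested were called higher and 22.5% in either direction. Germline markers were called higher in 7 of 7 cases (median 0.58), and their part in these list values was not tested.

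Of 11 oocyte RNA regulators 7 were higher in MY16_Star and 0 lower, with a median log2 fold change of 0.64. They were oma-2 at a log2 fold change of 0.94, spn-4 at 0.88, lin-41 at 0.87, pos-1 at 0.77, mex-3 at 0.68, car-1 at 0.56 and rnp-8 at 0.56. Their products are RNA-binding proteins of oocytes and early embryos. The lists overlap, as him-3 is also a germline marker, oma-1 and oma-2 are oocyte markers, and gld-1 is in both the target and the oocyte regulator list. Of the other Pumilio genes puf-9 and puf-12, 0 of 2 were called by edgeR and 0 had an unadjusted p under 0.05, and puf-12 had a log2 fold change of -0.55 (edgeR adjusted p = 0.278). The symbols puf-4, puf-10 and ntl-1 matched no gene and were not analysed here.

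**Figure D2:**
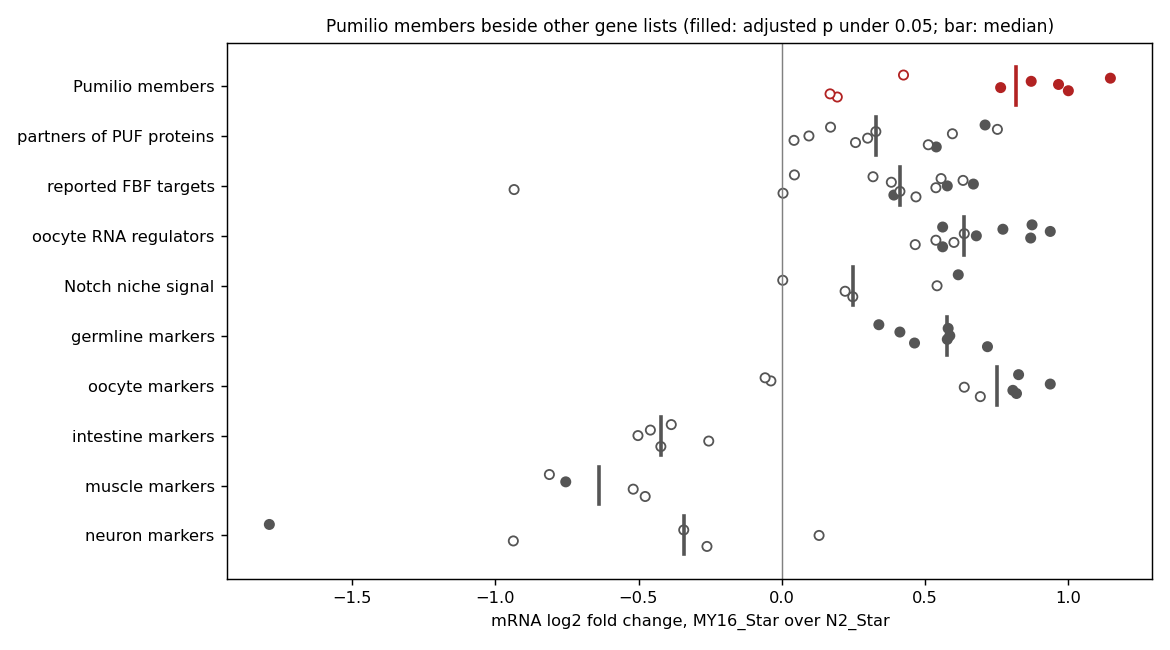
mRNA log2 fold change of MY16_Star over N2_Star (horizontal axis) for the Pumilio members, other genes of the pathway and tissue markers; each point is a gene, filled where the edgeR adjusted p was under 0.05, and bars are list medians. The 5 filled Pumilio members lie between 0.77 and 1.15, and intestine, muscle and neuron medians are below 0; sperm and embryo markers are not drawn.

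The contrasts of each Star group with the isolate whose name it carries gave no call in the family. For MY16_Star against MY16, edgeR called 0 of 8 members and 0.0215% of all genes, and DESeq2 also called 0 members. Unadjusted p was under 0.05 for 3 members: puf-7 with a log2 fold change of 0.54 and an interval of 0.11 to 0.96, puf-3 with 0.50 (0.08 to 0.91), and puf-11 with 0.43 (0.03 to 0.83), each with an edgeR adjusted p of 0.873. MY16_Star libraries lay above all MY16 libraries for 4 members, these and puf-6, while 10.7% of all genes did not overlap. Germline and oocyte markers differed in the same direction as most members. All 7 germline markers had mRNA log2 fold changes above 0 (median 0.30, 4 with an unadjusted p under 0.05), as had all 8 oocyte markers (median 0.35, 3 under 0.05). All 4 muscle markers were below 0 (median -0.47, 2 under 0.05). Of 9 sperm markers 0 were above 0 (median -0.92), and of 5 neuron markers 2 were (median -0.37). Of 5 intestine markers 3 were above 0 (median 0.21). No marker of these lists was called, and their part in the Pumilio values was not tested.

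For N2_Star against N2, edgeR and DESeq2 each called 0 of 8 members, 0 had an unadjusted p under 0.05, and edgeR called 0.15% of all genes. The log2 fold change was negative for 7 of the 8 members, with a median of -0.27, against -0.01 over all genes tested. In the same contrast all 7 germline markers were below 0 (median -0.31, 3 with an unadjusted p under 0.05). The 8 oocyte markers had a median of -0.32, but 2 of them were above 0, the highest at 0.27. All 5 intestine markers were above 0 (median 0.43, 2 under 0.05). edgeR called 0 of these markers, and their part in the Pumilio values was not tested. The log2 fold change was -0.38 for puf-7 (95% interval -0.81 to 0.04) and -0.36 for puf-11 (-0.76 to 0.04). N2_Star libraries were below all N2 libraries for 1 member, puf-11, and the groups did not overlap for 18.9% of all genes.

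The difference between these contrasts was tested as an interaction, the MY16_Star minus MY16 change less the N2_Star minus N2 change. By edgeR 0 of 8 members and 0% of all genes were called, and DESeq2 called 0 members. Unadjusted p was under 0.05 for 3 members, puf-7 at 0.92 on the log2 scale, puf-3 at 0.80 and puf-11 at 0.80, each with an edgeR adjusted p of 0.312. So the 5 members called between MY16_Star and N2_Star were not shown to respond differently within the isolates, and the contrasts share their groups.

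In MY16 against N2, which compares the isolates themselves, mRNA of the family gave no call: edgeR and DESeq2 each called 0 of 8 members, 0 had an unadjusted p under 0.05, and 4.03% of all genes were called by edgeR. The log2 fold changes ran from -0.04 for puf-3 to 0.30 for puf-5, with a median of 0.21, and MY16 overlapped N2 for all 8 members. For puf-7 the 95% interval was -0.19 to 0.66, and for fbf-1 it was -0.36 to 0.78. Group means of puf-5, puf-6, puf-7, puf-8 and puf-11 mRNA ran in the order MY16_Star, MY16, N2, N2_Star from high to low. No adjacent pair in that order passed the test.

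**Figure D3:**
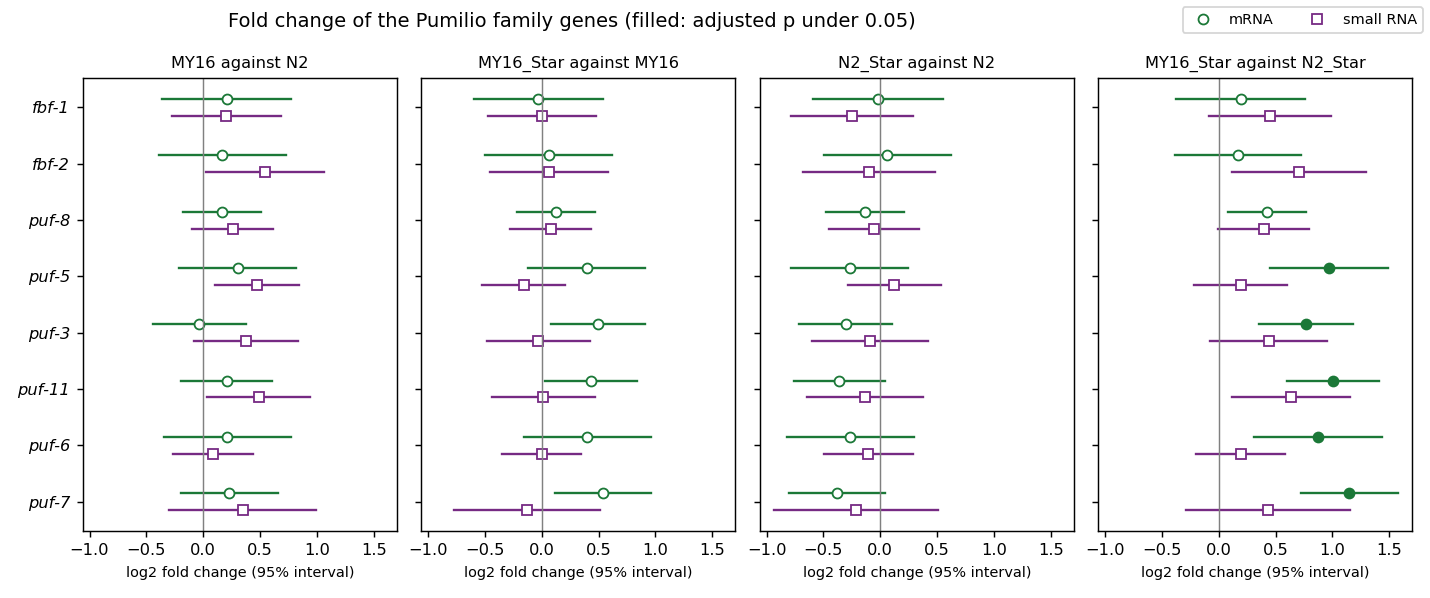
Log2 fold change of each Pumilio family gene with its 95% interval in 4 contrasts, mRNA as circles and small RNA as squares, filled where the edgeR adjusted p was under 0.05. Filled symbols appear in 1 panel, MY16_Star against N2_Star, for 5 mRNA values, and small RNA values are above 0 for all 8 genes in that panel and in MY16 against N2.

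Small RNA of the family was read as the strand opposite to the gene, since 246 of 258 miRNA genes, whose own strand gives the mature RNA, had a mean under 1 CPM in this table. No member was called in small RNA in any contrast. For MY16_Star against N2_Star, edgeR and DESeq2 each called 0 of 8 members, and edgeR called 14.5% of all genes. All 8 log2 fold changes were above 0, with a median of 0.44, against -0.02 over all genes tested. All 7 germline markers were above 0 as well, with a median of 0.48, 4 with an unadjusted p under 0.05 and 1 called, deps-1. Their summed small RNA was 1541 to 1649 CPM in MY16_Star and 930.5 to 1264 CPM in N2_Star. All 3 intestine markers tested were lower, with a median of -3.50, the 5 listed summing to 20.1 to 23.3 CPM in MY16_Star and 199.9 to 216 CPM in N2_Star. The part of these markers in the Pumilio values was not tested. For 2 members unadjusted p was under 0.05: fbf-2 at 0.70 ± 0.270 (SE; edgeR adjusted p = 0.110) and puf-11 at 0.64 ± 0.236 (0.10). Without N2 replicate 3, which enters the shared fit, fbf-2 was called, at 0.65 (edgeR adjusted p = 0.0411). The libraries of 5 members (fbf-2, puf-3, puf-6, puf-8 and puf-11) did not overlap, and neither did those of 50.2% of all genes.

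For fbf-2, MY16_Star small RNA libraries held 187, 212 and 241 CPM, MY16 libraries 186, 214 and 212 CPM, N2_Star libraries 107 and 155 CPM, and N2 libraries 147, 179 and 91.1 CPM. Every library with MY16 in its name was above every library with N2 in its name. Its neighbour fbf-1 held 124, 155 and 169 CPM in MY16_Star, 121, 147 and 178 CPM in MY16, 88.3 and 130.5 CPM in N2_Star, and 127, 153 and 107 CPM in N2, with overlap between MY16_Star and N2_Star and between MY16 and N2. For puf-11, the member with most small RNA per kilobase, MY16_Star libraries held 462, 380.1 and 361 CPM, MY16 libraries 437, 374 and 381 CPM, N2_Star libraries 219 and 298 CPM, and N2 libraries 321, 316 and 211 CPM. It separated by isolate name in the same way as fbf-2. The share of all genes that separate so over all groups at once was not counted. Between MY16 and N2 alone 33.3% of all genes did not overlap, and between MY16_Star and N2_Star alone 50.2%.

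The remaining members had an unadjusted p above 0.05 between the Star groups. For puf-3, MY16_Star libraries held 241, 194 and 211 CPM, MY16 libraries 254, 191 and 215 CPM, N2_Star libraries 131 and 187 CPM, and N2 libraries 197, 178 and 130.2 CPM. For puf-5, MY16_Star libraries held 168, 178 and 151 CPM, MY16 libraries 207, 187 and 161 CPM, N2_Star libraries 135 and 155 CPM, and N2 libraries 148, 139 and 111 CPM. Of these, puf-3 separated between the Star groups and puf-5 between MY16 and N2. The means of puf-8 were 149 ± 11.7 CPM in MY16_Star, 141.7 ± 20.0 in MY16, 114 ± 7.24 in N2_Star and 118 ± 15.2 in N2. Those of puf-6 were 76.7 ± 0.78, 76.5 ± 13.4, 67.2 ± 4.48 and 71.6 ± 9.75 CPM in the same groups. Those of puf-7 were 59.2 ± 14.9, 66.0 ± 28.4, 44.1 ± 9.96 and 50.0 ± 10.1 CPM, with the widest spread in MY16.

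**Figure D4:**
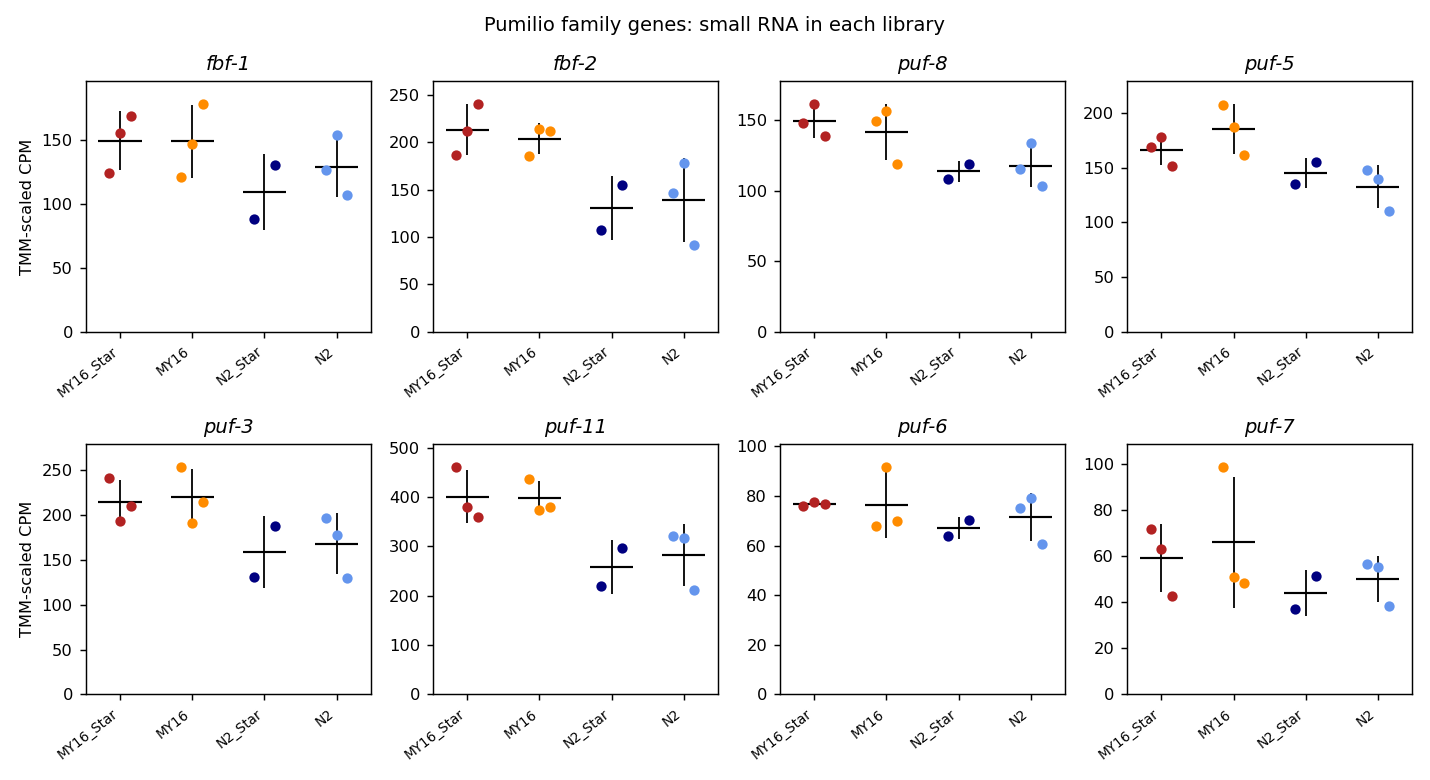
TMM-scaled small RNA CPM of each Pumilio family gene (vertical axis, from 0) in every library, by group; points are libraries, horizontal bars the mean and vertical lines the SD (n = 3, and n = 2 for N2_Star). For fbf-2 and puf-11 all MY16_Star and MY16 points stand above all N2_Star and N2 points, and for puf-6 and puf-7 the MY16 and N2 points overlap.

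For MY16 against N2 in small RNA, edgeR and DESeq2 each called 0 of 8 members, while edgeR called 18.6% of all genes. All 8 log2 fold changes were above 0, with a median of 0.36, against 0.00 over all genes tested, and 3 had an unadjusted p under 0.05. These were fbf-2 at 0.54 (edgeR adjusted p = 0.150), puf-11 at 0.49 (0.142) and puf-5 at 0.47 (0.0746). The same 3 members had non-overlapping libraries, as did 33.3% of all genes. All 7 germline markers also had small RNA log2 fold changes above 0 in this contrast, with a median of 0.34 and 0 calls, 2 having an unadjusted p under 0.05. Their summed small RNA was 1310.1 to 1598 CPM in MY16 and 912 to 1359.7 CPM in N2. N2 replicate 3, which had the lowest fbf-2, puf-11 and puf-5 values of its group, stood apart from the other N2 libraries. Its germline markers summed to 912 CPM, against 1204 and 1359.7 CPM in N2 replicates 1 and 2, its intestine markers to 267 CPM against 39.9 and 28.3 CPM, and its muscle markers to 258 CPM against 34.9 and 18.998 CPM. In N2_Star libraries the sums were 930.5 to 1264 CPM for germline, 199.9 to 216 CPM for intestine and 273 to 336 CPM for muscle markers. By intestine and muscle markers this library was thus nearer to N2_Star than to the other N2 libraries, and the reason was not tested. Without N2 replicate 3 the log2 fold change of MY16 over N2 was 0.32 for fbf-2 (edgeR adjusted p = 0.320), 0.31 for puf-11 (0.311) and 0.36 for puf-5 (0.168), and puf-6 was at -0.01. The part of these markers in the Pumilio values was not tested.

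Each Star group was also set against its isolate in small RNA. The median log2 fold change over the 8 members was 0.00 for MY16_Star against MY16 and -0.10 for N2_Star against N2. In both contrasts edgeR and DESeq2 called 0 of 8 members and 0 had an unadjusted p under 0.05, with 1.02% of all genes called in the first and 0.0245% in the second. Libraries overlapped for all 8 members in both, against 14.2% of all genes not overlapping in the first and 15.5% in the second. The 95% interval for fbf-2 was -0.46 to 0.58 for MY16_Star against MY16 and -0.68 to 0.48 for N2_Star against N2. N2 replicate 3, whose intestine and muscle marker sums were near those of N2_Star, enters the second contrast. Without that library edgeR called 0 members and 15 genes in N2_Star against N2. The interaction gave 0 called members by edgeR and by DESeq2, 0 with an unadjusted p under 0.05, and 0.368% of all genes called by edgeR.

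A Pumilio gene outside the 8 members, puf-9, was called in small RNA between the isolates and between the Star groups. Its product acts in larval somatic tissues. The small RNA of puf-9 stood at 52.3 ± 5.11 CPM in MY16 and 135 ± 8.99 CPM in N2 (SD, n = 3 each), a log2 fold change of -1.36 with a standard error of 0.165 (edgeR adjusted p = 0.000109). It stood at 57.8 ± 10.8 CPM in MY16_Star (n = 3) and 158 ± 7.18 CPM in N2_Star (n = 2), which is -1.45 ± 0.176 (SE) on the log2 scale (edgeR adjusted p = 0.000183). Its mRNA was 19.4 ± 3.54 CPM in MY16 and 17.3 ± 3.92 CPM in N2 and was not called in any contrast. Among the other lists, small RNA was higher in MY16 than in N2 for cpb-1, which codes for an FBF-binding protein of the CPEB family (log2 fold change 0.68, edgeR adjusted p = 0.0190), and for mex-3 (0.70, 0.0184). Small RNA of gld-3, which codes for a partner of the GLD-2 poly(A) polymerase, was lower in MY16_Star than in N2_Star (-0.51, 0.0466).

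Related genes can share reads, so the pairs fbf-1 and fbf-2, puf-3 and puf-11, and puf-6 and puf-7 were also read as shares of their summed counts, as a description. In mRNA puf-3 took 50.5% to 51.9% of its pair in MY16_Star libraries and 46.0% to 52.5% in MY16 libraries. It took 53.6% to 56.4% in N2_Star libraries and 53.3% to 55.1% in N2 libraries. No MY16_Star or MY16 library reached the puf-3 share of any N2_Star or N2 library. In small RNA the puf-3 share was lower, at 33.8% to 36.9% in MY16_Star, 33.8% to 36.8% in MY16, 37.4% to 38.6% in N2_Star and 36.0% to 38.2% in N2, where it overlapped between MY16 and N2 but not between MY16_Star and N2_Star. The reads of all groups were aligned to the N2 assembly, and whether sequence differences of MY16 shift these shares was not tested.

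The fbf-1 share of small RNA was 39.9% to 42.3% in MY16_Star, 39.5% to 45.6% in MY16, 45.2% to 45.7% in N2_Star and 46.2% to 53.9% in N2. It was lower in each MY16_Star library than in each N2_Star library and lower in each MY16 library than in each N2 library. In mRNA the fbf-1 share ranged from 43.6% to 51.1% in MY16_Star and from 42.7% to 48.4% in N2_Star and overlapped in all groups. The puf-6 share of small RNA varied most within a group, from 40.7% to 64.3% in MY16.

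With each pair summed, mRNA of puf-3 plus puf-11 was higher in MY16_Star than in N2_Star by 0.88 ± 0.188 (SE) on the log2 scale (edgeR adjusted p = 0.00956). That of puf-6 plus puf-7 was higher by 1.0 ± 0.225 (0.0121). The sum of fbf-1 and fbf-2 gave 0.18 ± 0.241 (0.598). Both calls stood with the reads of a pair summed. Since both genes of each called pair were also called singly, the sums add no separate support.

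**Figure D5:**
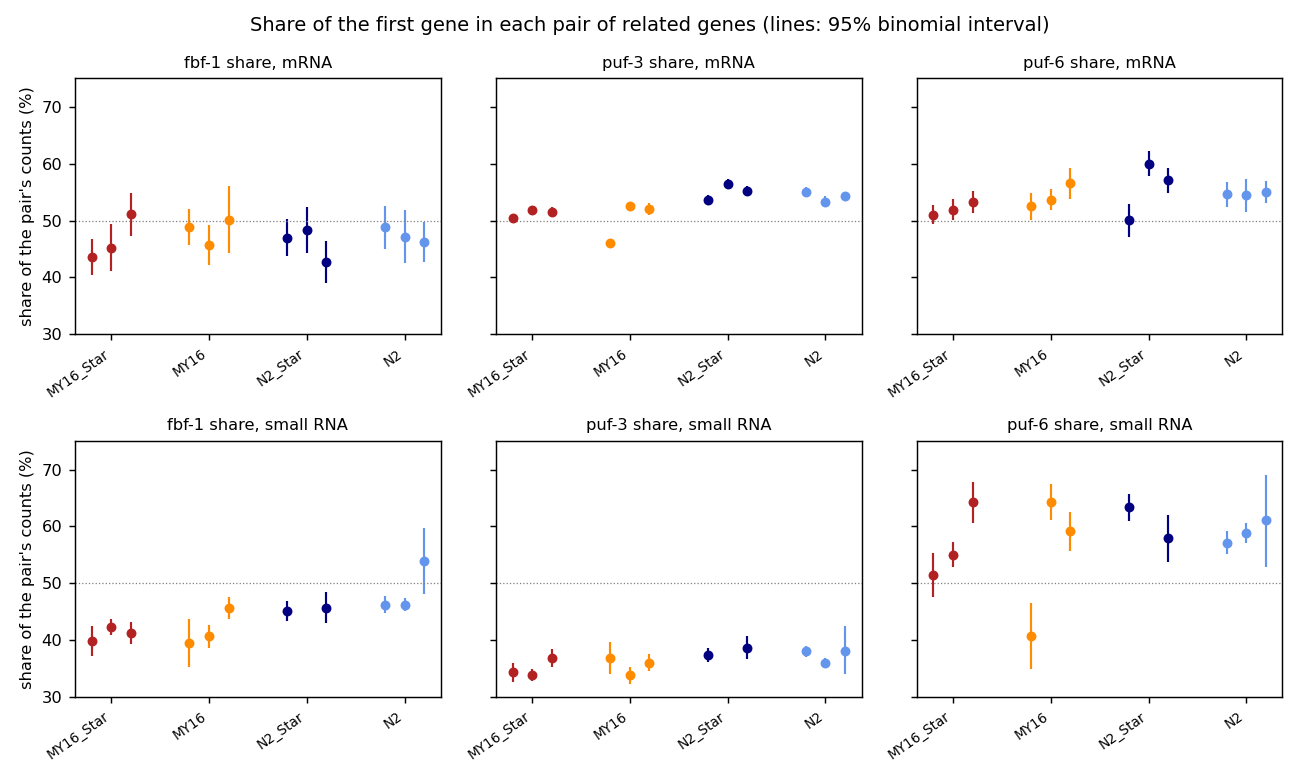
Share (%) of the pair's summed counts taken by fbf-1, puf-3 and puf-6 in each library, mRNA above and small RNA below; lines are exact 95% binomial intervals, which cover counting error only, and the dotted line marks equal shares. The vertical axis runs from 30% to 75%. In mRNA the puf-3 share is lower in all MY16_Star and MY16 libraries than in all N2_Star and N2 libraries.

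The likeness of profiles was measured over the 12 mRNA libraries as the root mean square distance between standardised log2(CPM + 1) values. Nearest to puf-11 were egg-1, which codes for a receptor-like protein of the oocyte surface (distance 0.174), and plk-1, which codes for a polo-like kinase (0.200). Nearest to puf-5 were gfat-2 (0.140) and deps-1, a P granule gene (0.154), and nearest to puf-3 were bath-40 (0.154) and mcm-7, which codes for a replication helicase subunit (0.158). Nearest to puf-6 were mex-1, which codes for an RNA-binding protein of the embryo (0.160), and gtbp-1 (0.246). For puf-7 they were gtbp-1 (0.267) and npp-3, a nuclear pore gene (0.277), and for puf-8 F55G1.6 (0.232) and F44B9.8 (0.246). The fbf genes had less close matches: Y111B2A.12 (0.403) and R10E4.6 (0.437) for fbf-1, and ddb-1 (0.460) and C50D2.7 (0.469) for fbf-2. Both fbf genes had the lowest mRNA counts of the family, 147 to 523 reads per library, and the distance does not allow for counting error.

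Within the family, fbf-1 and fbf-2 were nearest to each other at 0.490, ranking 8 and 4 among the 13982 other genes. Likewise puf-11 and puf-5 were nearest to each other at 0.208, ranking 3 and 7, and puf-6 and puf-7 at 0.336, ranking 21 in both directions. From puf-3 the nearest member was puf-5 at 0.357, ranking 51. Over the 11 small RNA libraries, puf-3 and puf-11 were nearest to each other at 0.279, ranking 2 from puf-3 and 9 from puf-11 among 12240 other genes. The nearest member to fbf-2 there was puf-11 at 0.529, ranking 447. Profiles within an assay share the same libraries and depth, so these distances are a description.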

How the data were processed

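The authors deposited whole-number counts of reads per gene, unnormalized, in 1 table for mRNA and 1 for small RNA. Per the submitters' processing notes, cutadapt, FastQC, Bowtie2, HTSeq and DESeq2 were used with ce11; versions are not given in the sources used here. Per the labels' protocols a small RNA library kit was named for both assays. Lines naming no gene held 7.84% to 17.7% of mRNA and 38.7% to 46.6% of small RNA counts and were left out. Reads set aside for low alignment quality were 5.37% to 9.28% in mRNA and 0% in small RNA; how reads of near-identical genes were handled is not given in the sources used here.

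For each assay 1 model took in all 4 groups, using edgeR 4.0.16 (R 4.3.3, limma 3.58.1): TMM, filterByExpr, quasi-likelihood F-test, Benjamini-Hochberg over all genes tested, threshold 0.05. The standard error comes from dividing the log2 fold change by √F. The steps were tested on simulated data. Alternatives were DESeq2 1.42.0, 2 other scalings, no filter, single libraries left out, only the 2 groups compared, a replicate block, and summed pairs. Named genes are the 8 members and, from each list, genes past the threshold or the 2 with the smallest p; markers and nearest profiles follow fixed lists and the distance. The members and lists were chosen with earlier results of these data known. No duplicated library was found within a group: chi-square per degree of freedom between replicates was 9.49 or more. Pairs of libraries from different groups were not checked in this way.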

Additional observations from a re-analysis of the deposited data

How the results depend on the processing

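Over 1544 refitted member values, 1529 kept their side of the threshold, 10 lost it and 5 gained it. The sign changed in 124, over 34 of 80 results, none of them past the threshold in either fit. In mRNA of MY16_Star against N2_Star the 5 called members became 2 (puf-7 and puf-11) with only the 2 groups, 2 without replicate 1 of both Star groups, and 2 to 6 with single libraries left out: 2 without MY16_Star replicate 1, 4 without N2_Star replicate 3 and 6 without MY16 replicate 1 or MY16 replicate 3. They were the same 5 under DESeq2 and every scaling, although scaling by library size alone moved the median of all genes from -0.12 to -0.26 and the share of calls that were higher from 34.2% to 18.5%. The cause was not tested. In small RNA the 0 called members became 1 without N2 replicate 3 (fbf-2 in MY16_Star against N2_Star, adjusted p = 0.0411; 0 to 1 over single libraries left out). Replicate numbers were not taken to pair the samples, since not every same-numbered pair correlated above 0.1: 14 of 18 did in mRNA (median 0.22), against 8 of 36 pairs of other numbers (median -0.05), and in small RNA 5 of 15, against 10 of 30. As a hint from the data, 8 of 12 mRNA and 6 of 11 small RNA libraries correlated best with their own number. With the replicate block, 6 members were called in mRNA of MY16_Star against N2_Star (puf-8 added, adjusted p = 0.0333) and 1 in small RNA of MY16 against N2 (puf-5, 0.0490).

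Counts over all genes moved more. In mRNA, MY16_Star against N2_Star gave 3145 calls, against 792 with only the 2 groups and 1281 to 3631 with single libraries left out. N2_Star against N2 gave 21, against 387 with DESeq2, 233 unfiltered, 109 with the block, 274 without replicate 1 of both Star groups, 0 with only the 2 groups and 0 to 177 with single libraries left out. MY16_Star against MY16 gave 3, against 0 with only the 2 groups and 0 to 3 with single libraries left out; MY16 against N2 gave 563, against 923 without replicate 1 of both Star groups; the interaction gave 0, against 77 with DESeq2, 5 unfiltered, 1 with the block, 2 without replicate 1 of both Star groups and 0 to 8 with single libraries left out. In small RNA, DESeq2 and no filter gave 274 and 522 against 125 for MY16_Star against MY16 (67 to 151 with single libraries left out), 14 and 123 against 3 for N2_Star against N2 (2 to 15), and 124 and 282 against 45 for the interaction (20 to 80); MY16_Star against N2_Star gave 1773, against 832 without replicate 1 of both Star groups and 1010 to 2182 with single libraries left out. Depth was lowest in N2 replicate 3 of small RNA, with 1778321 counts.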
